A study of Homo sapiens with 6 samples.

Results

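The 49 genes described here build, cut, cap, cross-link and anchor actin filaments. They were chosen by name from the gene table of an RNA-seq experiment on SKBR3 cells, a human breast adenocarcinoma line of epithelial type that carries an amplified ERBB2 (HER2) gene. Each of the 49 names was found among the 54644 gene rows of the table, and 48 of them, all but VIL1, had enough fragments to be tested together with the other genes that passed the same filter, 14409 in total. CTTN encodes cortactin, a protein that binds and stabilises branched actin filaments, so the comparison asks what its overexpression did to the mRNAs of the rest of the actin machinery.

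Stable SKBR3 lines were compared, with 3 libraries in each group. In the CTTN group the cells had been infected with lentivirus carrying the human CTTN cDNA (pLVX-CTTN), and in the control group with the empty pLVX vector. Both lines had been selected with puromycin, so both carry an integrated vector and its resistance gene. The submitters call the 3 libraries of a group biological replicates, but nothing states that they came from separate infections or cultures, and the p-values below therefore measure only the spread between these libraries, which may be technical. The RNA extraction note of the submitters also uses the word tumors beside the name of the cell lines, and the cells are taken here as cultured cells, as the design note describes them.

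An actin filament grows from monomers that thymosins hold in reserve and profilins deliver. Formins and Ena/VASP proteins elongate it, capping protein stops it, and cofilins, gelsolin and their relatives sever it. Alpha-actinins, filamin and fascin join filaments into networks and bundles, tropomyosins coat them, non-muscle myosin II pulls on them, and talin, vinculin, zyxin and paxillin tie their ends to integrins at focal adhesions. Serum response factor (SRF), with its actin-sensing coactivators, is known for driving many of these genes through a short promoter element, the CArG box.

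The promoter element is shown because SRF is itself one of the 49 genes. RefSeq promoter windows (250 bases before to 50 after a start site, GRCh38.p14) were held for 44 of the 49 genes, and 5 of their 75 windows (6.67%) contained a 10-base CArG box, beside 454 of 35116 windows over all genes (1.29%). The box reads the same class of letters on both strands. The stretches around the boxes, each upstream of an annotated start site, are given 5′ to 3′ on the strand of the gene with the box in capitals:
SRF, chr6:43171224-43171263, plus strand: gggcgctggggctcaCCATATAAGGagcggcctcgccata
SRF, chr6:43171244-43171268, plus strand: taaggagcggcctcgCCATAAAAGG
ACTG1, chr17:81512869-81512908, minus strand: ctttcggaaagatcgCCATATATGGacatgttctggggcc
ACTN1, chr14:68977713-68977752, minus strand: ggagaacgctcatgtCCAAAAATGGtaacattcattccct
TPM4, chr19:16067350-16067389, plus strand: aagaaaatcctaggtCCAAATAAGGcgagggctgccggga
FLNA, chrX:154374704-154374743, minus strand: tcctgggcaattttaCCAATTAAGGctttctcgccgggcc
The ACTN1 box lies 171 bases before an alternative start inside the span of the gene (chr14:68874128-68979302), and the others lie before the span of their gene. A match of letters is a description and does not show binding. None of these 5 genes passed the test described below.

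The libraries held 34887069 to 41279816 fragments assigned to genes. Levels are given as CPM (fragments scaled to the size of the library, with TMM factors) when 1 gene is compared between libraries, and as FPKM, which divides by transcript length, when genes are compared with each other. Luminal markers were high in every library, with ERBB2 at 7443 to 8463 CPM, KRT8 at 3249 to 4661 CPM and EPCAM at 184 to 287 CPM. The epithelial cadherin CDH1 lay at 0.167 to 0.455 CPM, so this defining epithelial marker was close to absent, and the mesenchymal marker VIM was as low at 0.156 to 0.425 CPM. Of the 12 mesenchymal markers 8 were under 1 CPM in every library, but FN1 lay at 26.8, 42.3 and 17.6 CPM in CTTN and 43.9 to 46.7 CPM in control libraries and COL1A1 at 12.6 to 16.4 CPM over all. The list summed to 137 to 192 CPM in CTTN and 129 to 137 CPM in control libraries. FN1 was lower in each CTTN library than in every control library, and COL1A1 overlapped between the groups. The higher range of the sum in CTTN libraries thus came from other genes of the list, which are not named here. Under 1 CPM throughout were also 6 of 8 myoepithelial and 6 of 8 endothelial or leukocyte markers. In the last list the summed level ran from 6.28 to 9.18 CPM in CTTN libraries and from 17.3 to 19.2 CPM in control libraries, and CDH5 made most of it, at 4.43 to 7.13 CPM in CTTN and 15.2 to 16.8 CPM in control libraries.

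CTTN itself was measured at 793, 1011 and 520 CPM in CTTN libraries 1, 2 and 3, and at 299, 307 and 306 CPM in the 3 control libraries. Every CTTN library lay above every control library, with library 3 the lowest of its group. The log2 fold change was 1.35 ± 0.22 (SE, n = 3 per group; edgeR quasi-likelihood test, Benjamini-Hochberg adjusted p = 0.0248). The call was lost in 5 of 14 alternative settings, with adjusted p from 6.56e-07 to 0.154; leaving out CTTN library 1 gave 0.121, and leaving out 1 control library gave 0.136 to 0.154. The gene sum does not separate fragments of the vector from those of the endogenous gene.

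The CTTN libraries differed from each other far more than the controls did, and the difference followed transcript length. For genes under 1000 bases the median log2 ratio to the control mean was 0.73 in CTTN library 3, 0.32 in library 1 and 0.01 in library 2. Over 6000 bases the same medians were -0.84, -0.47 and -0.0079. In the control libraries these medians lay between -0.11 and 0.10. Library 3, the one with the least CTTN, thus stood farthest from the controls and library 2, with the most CTTN, nearest to them. What the trend adds to the calls below was examined in a fit without it, described after the gene groups.

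Among the 49 genes, 2 rose and 1 fell in CTTN-overexpressing cells at an adjusted p under 0.05. Gelsolin (GSN) and profilin 2 (PFN2) rose, and LIMA1 fell. These 3 genes are 6.25% of the 48 tested, close to the 4.46% of all 14409 genes called (350 higher, 293 lower). In the higher direction the share called over all genes was 2.43%, and in the lower direction 2.03%. With at least 1.5-fold required, LIMA1 was the 1 gene left, beside 3.32% of all genes. At an unadjusted p under 0.05 the list had 18 genes (37.5%), 9 in each direction, beside 30.2% of all genes. The median log2 fold change was 0.08 over the list and 0.01 over all genes tested.

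This count depended on single libraries. Without CTTN library 1, or without any 1 of the 3 control libraries, edgeR called 0 of the genes and 0.102 to 0.218% of all genes. At an unadjusted p under 0.05 those fits had 8 to 12 genes of the list and 15.9 to 18.8% of all genes. Without CTTN library 3 it called 2 higher and 4 lower (GSN and PFN2 higher; LIMA1, ENAH, ZYX and MSN lower), while 668 genes in all were higher and 584 lower (8.55%). Without CTTN library 2, the library nearest to the controls, it called 17 higher and 15 lower, while calls over all genes went to 3366 higher and 3559 lower (47.1%). The log2 fold change moved by over 1.5 times for 27 of the 48 genes without CTTN library 3 and for 17 without library 2. Groups without overlap between the 3 CTTN and the 3 control values were found for 23 of the 48 genes (47.9%), 12 higher and 11 lower, beside 38.8% of all genes.

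**Figure D1:**
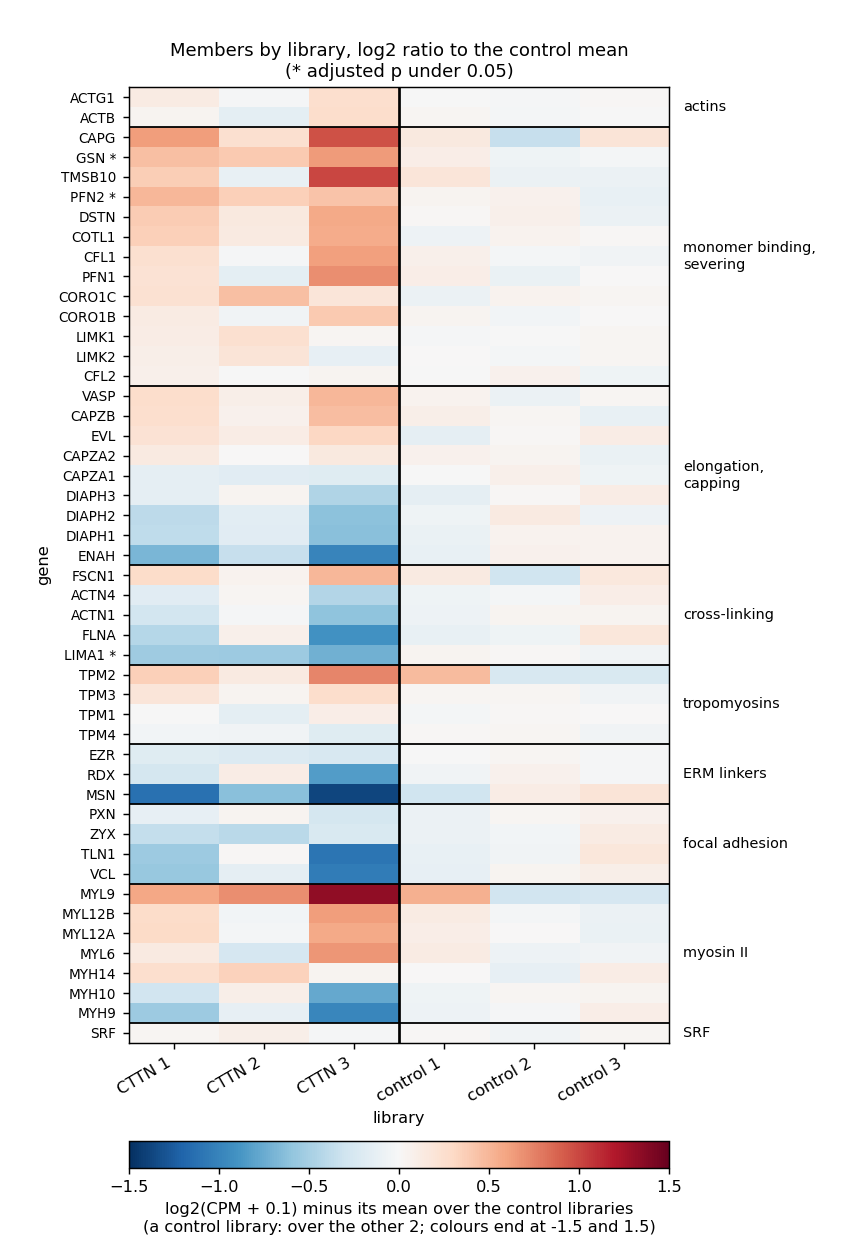
Colour map of the 48 tested genes (rows, grouped by role) in the 6 libraries (columns), as log2(CPM + 0.1) minus its mean over the control libraries (for a control library, over the other 2), with red above and blue below the control mean and a star for adjusted p under 0.05. CTTN library 3 lies farthest from 0 for 39 of the 48 genes and CTTN library 2 nearest to 0 among the CTTN libraries for 34.

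LIMA1 (EPLIN), which bundles actin filaments and slows their depolymerisation, spans chr12:50175788-50283520 (GRCh38.p14). It was measured at 94.9, 94.6 and 83.4 CPM in the CTTN libraries and at 140.2, 138.8 and 134.6 CPM in the controls. The groups were far apart and each was narrow. LIMA1 fell by 0.60 on the log2 scale (SE 0.084; edgeR adjusted p = 0.0157), a ratio of 0.660. It passed in 9 of 14 alternative settings, and its adjusted p ran from 4.78e-08 to 0.119. Leaving out CTTN library 1 gave 0.103, and leaving out 1 control library gave 0.0965 to 0.119.

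GSN, the calcium-dependent protein that severs and caps filaments, lies at chr9:121201483-121332842. Its levels were 85.2, 82.1 and 97.1 CPM in CTTN libraries and 65.3, 60.5 and 61.4 CPM in controls, again without overlap. The log2 fold change was 0.50 ± 0.092 (SE; edgeR adjusted p = 0.0341), and 7 of 14 alternatives kept it past the threshold, with adjusted p from 0.000208 to 0.200. PFN2, the less abundant profilin of these cells, lies at chr3:149964904-149970895. It stood at 85.3, 77.4 and 81.5 CPM against 61.9, 62.4 and 57.6 CPM. All 3 CTTN values exceeded the controls, with a log2 fold change of 0.42 ± 0.081 (SE; edgeR adjusted p = 0.0365), and 6 of 14 alternatives kept the call, with adjusted p from 0.000157 to 0.200. For both genes the call was lost without CTTN library 1 (0.157 for GSN and 0.200 for PFN2) and without any 1 control library (0.148 to 0.200 for GSN and 0.175 to 0.192 for PFN2). The PFN2 row also carries the names ANKUB1 and RNU6-507P, but 99.7 to 100% of its fragments came from transcripts of PFN2.

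**Figure D2:**
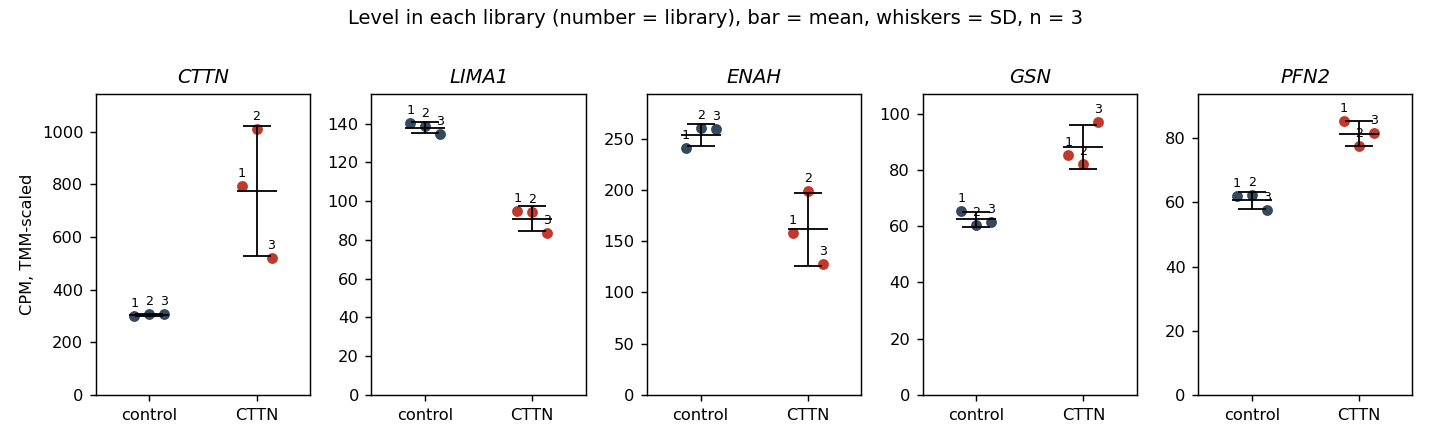
CPM in each library for CTTN, LIMA1, ENAH, GSN and PFN2, with control libraries in dark blue, CTTN libraries in red, library numbers beside the points, bars at the mean and whiskers of 1 SD (n = 3). In each panel the groups do not overlap; for CTTN and ENAH the CTTN libraries are widely spread (520 to 1011 CPM and 128 to 199 CPM), for LIMA1, GSN and PFN2 they are narrow.

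The 2 actins, the building blocks of the filaments, overlapped between the groups. ACTB was the highest of all 49 genes at 2827 ± 22.9 FPKM in controls (SD, n = 3) and 3142 ± 713 FPKM in CTTN cells. Per library it stood at 4823, 4246 and 5657 CPM against 4775, 4644 and 4701 CPM, so that the CTTN values lay on both sides of the controls (log2 fold change 0.06 ± 0.12, SE; edgeR adjusted p = 0.728). ACTG1 had a log2 fold change of 0.13 ± 0.093 (edgeR adjusted p = 0.351). The ratio of ACTB to ACTG1 in FPKM was 4.73 ± 0.72 in CTTN cells and 4.69 ± 0.15 in controls.

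Of the 14 genes that bind monomers, sever filaments or regulate these steps, 13 were tested and 2 (GSN, PFN2) were called. All 13 log2 fold changes were above 0, from 0.04 for CFL2 to 0.64 for CAPG, with a median of 0.30. In 7 of the 13 the CTTN values all exceeded the controls (19.4% of all genes, of every length, did). Most of the 13 have transcripts under 2000 bases, and all genes of that length had a median log2 fold change of 0.26. TMSB10, a thymosin that sequesters monomers, was the highest of the group at 1336 ± 71.9 FPKM in controls. It was measured at 634, 455 and 984 CPM in CTTN libraries and 533, 470 and 471 CPM in controls. Its lowest and its highest value were thus both in the CTTN group, and the log2 fold change of 0.49 ± 0.26 did not pass (edgeR adjusted p = 0.220). PFN1 had 799, 621 and 1118 CPM against 720, 656 and 688 CPM (edgeR adjusted p = 0.312), and CFL1, a cofilin, had 947, 792 and 1225 CPM against 831, 789 and 783 CPM (edgeR adjusted p = 0.217). In all 3 genes CTTN library 3 was the highest, and the fold change rested on the choice of libraries: without library 3 the log2 fold changes were 0.15, 0.05 and 0.12 for TMSB10, PFN1 and CFL1, and without library 2 they were 0.71, 0.47 and 0.43, with edgeR adjusted p of 0.00737, 0.0169 and 0.0122. Destrin (DSTN), the cofilin relative whose FPKM exceeded that of CFL1 in 5 of the 6 libraries (all but CTTN library 3), did not overlap between the groups, with 1238, 1054 and 1411 CPM against 956, 982 and 911 CPM, but missed the threshold (log2 fold change 0.38 ± 0.12; edgeR adjusted p = 0.103).

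CAPG, a gelsolin relative that caps without severing, had 6.44, 4.89 and 8.10 CPM against 4.44, 3.503 and 4.53 CPM (edgeR adjusted p = 0.109). COTL1, a coactosin-like actin binder, had a log2 fold change of 0.36 ± 0.12 (edgeR adjusted p = 0.109), and CORO1C, a coronin, one of 0.29 ± 0.10 (edgeR adjusted p = 0.122). LIMK1 and LIMK2, the kinases that inactivate cofilin, had log2 fold changes of 0.13 and 0.06. VIL1 (villin), a marker of intestinal microvilli, had 6, 2 and 3 fragments in CTTN libraries and 1 in each control library, which is too few to test.

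Elongation and capping genes went both ways, and none of the 9 passed. ENAH (Mena), an Ena/VASP protein that elongates filaments at the leading edge (chr1:225486829-225653878), was measured at 158, 199 and 128 CPM in CTTN libraries and at 241, 260 and 259 CPM in controls. The groups did not overlap, but the CTTN libraries were widely spread, and the log2 fold change of -0.65 ± 0.16 missed the threshold (edgeR adjusted p = 0.0650). In 5 of 14 alternatives ENAH passed (adjusted p from 0.00144 to 0.252). Its relatives VASP and EVL lay on the other side of 0, at 0.29 ± 0.11 and 0.22 ± 0.093 (edgeR adjusted p = 0.147 and 0.168). The VASP to ENAH ratio in FPKM was 0.841, 0.688 and 0.696 in controls and 1.77, 0.893 and 4.09 in the CTTN libraries, all above the controls.

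The formins DIAPH1, DIAPH2 and DIAPH3, which assemble unbranched filaments, had log2 fold changes of -0.39, -0.38 and -0.17 (edgeR adjusted p from 0.107 to 0.380). The capping protein subunits were divided, with CAPZB at 0.27, CAPZA2 at 0.10 and CAPZA1 at -0.16. CAPZA2 was the highest of the 9 genes in FPKM, at 139 ± 3.70 in controls and 125 ± 27.5 in CTTN cells. Its values in CPM overlapped, with 251, 229 and 253 in CTTN libraries and 234, 233 and 218 in controls (edgeR adjusted p = 0.408).

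Among cross-linkers, 4 of 5 log2 fold changes were below 0, and LIMA1 was the 1 that passed. ACTN4, a non-muscle alpha-actinin and the highest of the group at 146 ± 11.2 FPKM in controls, had 490, 564 and 408 CPM against 536, 545 and 578 CPM, with CTTN library 2 inside the control range (log2 fold change -0.18 ± 0.12; edgeR adjusted p = 0.319). FLNA (filamin A) had 395, 562 and 284 CPM against 505, 517 and 577 CPM. Its log2 fold change of -0.36 ± 0.23 did not pass (edgeR adjusted p = 0.283), and it had the opposite sign in the deposited FPKM, with 103 ± 39.1 in CTTN cells and 78.4 ± 3.59 in controls. Without CTTN library 3 the log2 fold change was -0.15, and without library 2 it was -0.66 (edgeR adjusted p = 0.00553). FSCN1 (fascin) was low, at 1.66 ± 0.16 FPKM in controls.

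No tropomyosin gene passed the test. TPM3 was the highest of the 4 in FPKM, at 235 ± 8.99 in CTTN cells and 216 ± 2.24 in controls. It stood at 503, 458 and 534 CPM against 450, 449 and 434 CPM, without overlap but short of the threshold (log2 fold change 0.17 ± 0.085; edgeR adjusted p = 0.218). TPM1 had nearly the same sum in both groups, with 213, 192 and 228 CPM against 211, 216 and 214 CPM (log2 fold change -0.02 ± 0.087; edgeR adjusted p = 0.909). TPM4 had a log2 fold change of -0.09, and TPM2, at 2.32 ± 0.40 FPKM in controls, one of 0.42.

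The deposited tables also divide each gene by start site, and the sum of TPM1 held 2 start-site groups whose estimates lay on opposite sides of the controls. The group named TSS40330 was estimated at 75.3, 71.0 and 62.7 CPM in CTTN libraries and 99.7, 110 and 106 CPM in controls. The group TSS40334 was estimated at 133, 118 and 163 CPM against 99.2, 101 and 100 CPM. Neither overlapped between groups, and neither passed the test over 35799 start-site groups (log2 fold change -0.60 ± 0.10 with edgeR adjusted p = 0.336, and 0.47 ± 0.13 with edgeR adjusted p = 0.478). As a share of the gene, TSS40334 went from 46.8 ± 0.77% in controls to 64.8 ± 5.8% in CTTN cells.

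At the isoform level the first group was nearly all TPM1-206, a tropomyosin of 284 residues, and the other was mostly TPM1-208, a short form of 248 residues. TPM1-206 made up 33.8, 33.6 and 25.6% of TPM1 in CTTN libraries and 44.6, 47.5 and 45.6% in controls. TPM1-208 made up 53.5, 47.0 and 65.2% against 35.9, 33.7 and 32.0%. The transcripts have 1717 and 1627 bases, and TSS40334 also holds TPM1-203, of 2847 bases. No fit with the length trend removed was run on start-site groups or isoforms. These values are the estimates of the authors' assembler, and the 2 isoforms had edgeR adjusted p = 0.493 and 0.744.

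**Figure D3:**
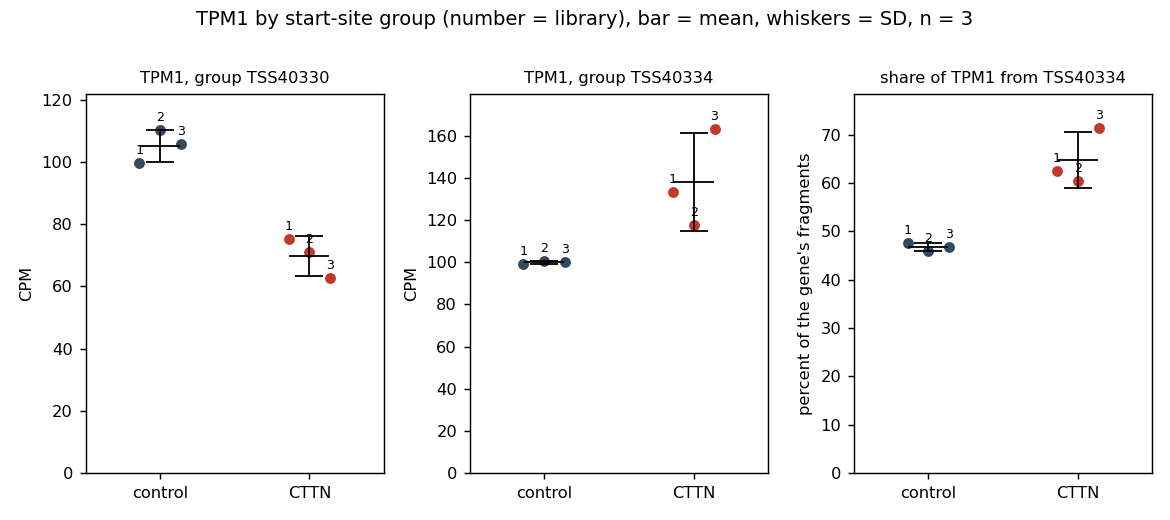
Estimated CPM of the TPM1 start-site groups TSS40330 and TSS40334 and the share of TPM1 fragments from TSS40334, per library (numbers), with control in dark blue, CTTN in red, bars at the mean and whiskers of 1 SD (n = 3). TSS40330 is lower and TSS40334 higher in all 3 CTTN libraries, and neither passed the test over all start-site groups.

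In the other tropomyosins the start-site estimates were less regular. TPM3 came almost wholly from 1 start-site group (98.8% in CTTN cells and 97.9% in controls). For TPM4 the group TSS62200 was estimated at 169, 148 and 200 CPM against 153, 141 and 129 CPM, and TSS62208 at 109, 72.2 and 121 CPM against 86.8, 83.9 and 95.0 CPM. TSS62201 was estimated at 69.7, 123 and 1.43 CPM against 106, 132 and 112 CPM, so that CTTN library 3 stood apart. TPM2 had 78.9 ± 11.4% of its fragments from TSS125446 in CTTN cells and 79.3 ± 4.5% in controls, and 18.7 ± 12.1% and 17.3 ± 3.8% from TSS125447.

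Over all 48 genes, edgeR called 0 of 168 start-site groups and 0 of 263 isoforms, as it did for 0 of 35799 and 0 of 58051 over the whole tables. At an unadjusted p under 0.05 there were 26 start-site groups and 21 isoforms of these genes, beside 10.4% and 6.25% of all tested. Of 77 start-site groups that made up over 5% of a gene with several, 12 had shares that did not overlap between CTTN and control, and over all genes 13.9% did. The main start-site group of GSN (TSS124081) was estimated at 80.03, 78.3 and 79.3 CPM against 62.3, 56.7 and 57.6 CPM, and that of PFN2 (TSS92266) at 68.2, 59.1 and 68.5 CPM against 43.3, 49.02 and 42.8 CPM. Both lay on the side of their gene sums.

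Each of the 3 ERM genes, whose proteins link filaments to the plasma membrane, and each of the 4 focal adhesion genes had a log2 fold change below 0, and none passed. EZR (ezrin), the highest ERM gene at 155 ± 1.54 FPKM in controls, had 452, 443 and 433 CPM in CTTN libraries and 510, 519 and 507 CPM in controls. The groups were tight and apart, yet the difference was small (log2 fold change -0.21 ± 0.071; edgeR adjusted p = 0.119). MSN (moesin) was barely expressed, at 0.819, 1.20 and 0.667 CPM against 1.64, 2.00 and 2.08 CPM (log2 fold change -1.08 ± 0.25; edgeR adjusted p = 0.0565). RDX (radixin) had a log2 fold change of -0.28 ± 0.22, which was -0.065 without CTTN library 3 and -0.53 without library 2 (edgeR adjusted p = 0.0167). The ratio of EZR to MSN in FPKM was 649 ± 154 in CTTN cells and 346 ± 58.6 in controls, and that of EZR to RDX was 5.79 ± 1.88 and 5.33 ± 0.15.

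ZYX (zyxin), the highest focal adhesion gene at 85.7 ± 4.22 FPKM in controls, was measured at 148, 143 and 161 CPM against 182, 186 and 201 CPM. The log2 fold change was -0.33 ± 0.085, just short of the threshold (edgeR adjusted p = 0.0726), and 5 of 14 alternatives called it (adjusted p from 0.00407 to 0.268). VCL (vinculin) had 254, 344 and 182 CPM against 355, 384 and 392.2 CPM. TLN1 (talin), the integrin activator, had 119, 175 and 80.5 CPM against 164, 168 and 187 CPM. In both genes CTTN library 3 was the lowest and library 2 the nearest to the controls, and neither passed (log2 fold change -0.54 ± 0.21 and -0.47 ± 0.25; edgeR adjusted p = 0.148 and 0.227). Without library 3 the log2 fold changes were -0.33 and -0.24, and without library 2 they were -0.80 and -0.81 (edgeR adjusted p = 0.00283 and 0.00386). PXN (paxillin) had a log2 fold change of -0.11 ± 0.098.

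None of the 7 non-muscle myosin II genes passed, and 5 had log2 fold changes above 0 and 2, the heavy chains MYH9 and MYH10, below. MYH9, the main heavy chain, had 562, 757 and 419 CPM against 793, 817 and 861 CPM (log2 fold change -0.51 ± 0.20; edgeR adjusted p = 0.146). Its log2 fold change was -0.32 without CTTN library 3 and -0.75 without library 2 (edgeR adjusted p = 0.126 and 0.00264). MYH14, another heavy chain, had 61.8, 66.1 and 53.4 CPM against 52.1, 49.2 and 54.6 CPM (log2 fold change 0.22 ± 0.10; edgeR adjusted p = 0.191). The MYH9 to MYH14 ratio in FPKM was 6.13, 7.10 and 5.48 in CTTN libraries and 10.96, 11.02 and 10.6 in controls. MYH10 had a log2 fold change of -0.28, which was -0.089 without CTTN library 3 and -0.52 without library 2 (edgeR adjusted p = 0.0126). MYL6, the essential light chain and the highest of the group at 471 ± 20.3 FPKM in controls, had 359, 273 and 516 CPM against 344, 315 and 319 CPM (edgeR adjusted p = 0.453). Its row also holds MYL6B, with 89.3 to 91.1% of the fragments from MYL6.

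The regulatory light chains MYL12A and MYL12B kept a ratio of 2.00 ± 0.057 (MYL12B over MYL12A in FPKM) in CTTN cells and 1.99 ± 0.0077 in controls, with log2 fold changes of 0.30 and 0.31. These were 0.14 and 0.12 without CTTN library 3 and 0.43 and 0.45 without library 2 (edgeR adjusted p = 0.00774 and 0.00971). MYL9, the light chain typical of smooth muscle, was nearly silent at 0.678, 0.745 and 1.21 CPM against 0.566, 0.357 and 0.365 CPM (log2 fold change 1.03 ± 0.33; edgeR adjusted p = 0.109). SRF was at 47.7, 49.98 and 46.4 CPM against 47.3, 45.8 and 47.5 CPM, a log2 fold change of 0.04 ± 0.077 (edgeR adjusted p = 0.757).

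The log2 fold changes of the 48 genes followed transcript length as those of all genes did. Across genes, which are not independent replicates and share the same libraries, Spearman's rho between fold change and transcript length was -0.766 over the 48 genes and -0.558 over the 14408 genes with a length. Of the 19 genes with transcripts under 2000 bases, 18 had log2 fold changes above 0, with a median of 0.30 beside 0.26 for all genes of that length. From 2000 to 4000 bases 8 of the 18 genes were above 0, and at 4000 bases or over 9 of 11 were below 0, with a median of -0.36 beside -0.30 for all genes. The monomer-binding genes are mostly short (496 bases for TMSB10, 962 for PFN1, 1308 for CFL1), while the focal adhesion genes TLN1 and VCL are long (8384 and 5670 bases).

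Within single libraries the same relation over the 48 genes was strong in CTTN library 3 (rho -0.88) and library 1 (-0.74) and near 0 in library 2 (-0.05). It was -0.73, 0.30 and 0.57 in the 3 control libraries, each set against the mean of the other 2, with far smaller ratios. The summed FPKM of all genes, which FPKM does not hold constant, was 704018, 605260 and 852256 in CTTN libraries and 603634 to 624680 in controls. The 49 genes summed to 11647, 9760 and 14674 FPKM in CTTN libraries and 10156 to 10430 in controls, and took 1.65, 1.55 and 1.83% of fragments against 1.62 to 1.64%.

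A fit in which the smooth trend with length was removed from each library, an alternative chosen after seeing the data, called 7 of the 48 genes higher and 9 lower (33.3%), beside 18.9% of all genes. The 3 genes called without that step were among them. LIMA1 had a log2 fold change of -0.49 (edgeR adjusted p = 0.000601), GSN one of 0.50 (0.00301) and PFN2 one of 0.28 (0.0215). ENAH (-0.49, 0.00319), ZYX (-0.36, 0.00407), MSN (-0.92, 0.0166), MYH14 (0.55, 0.00446) and CORO1C (0.46, 0.00188) also passed there, together with DSTN, COTL1 and LIMK1 on the higher side and VCL, DIAPH1, CAPZA1, TPM1 and MYL6 on the lower side. TMSB10 went from 0.49 to 0.02, TLN1 from -0.47 to -0.06 and CFL1 from 0.30 to 0.02. By role, 11 of the 13 monomer-binding or severing genes stayed above 0 and 6 of them passed on the higher side. Of these 11, TMSB10, CFL1, LIMK2 and CORO1B lay close to 0, at 0.019, 0.025, 0.030 and 0.030 (edgeR adjusted p from 0.732 to 0.862). All 3 ERM genes stayed below 0 with 1 passing, and 3 of the 4 focal adhesion genes stayed below 0 with 2 passing. Over all 14409 genes, 1428 were higher and 1302 lower in that fit. The median absolute log2 fold change of the list went from 0.29 to 0.13, and rho with length from -0.766 to -0.158.

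**Figure D4:**
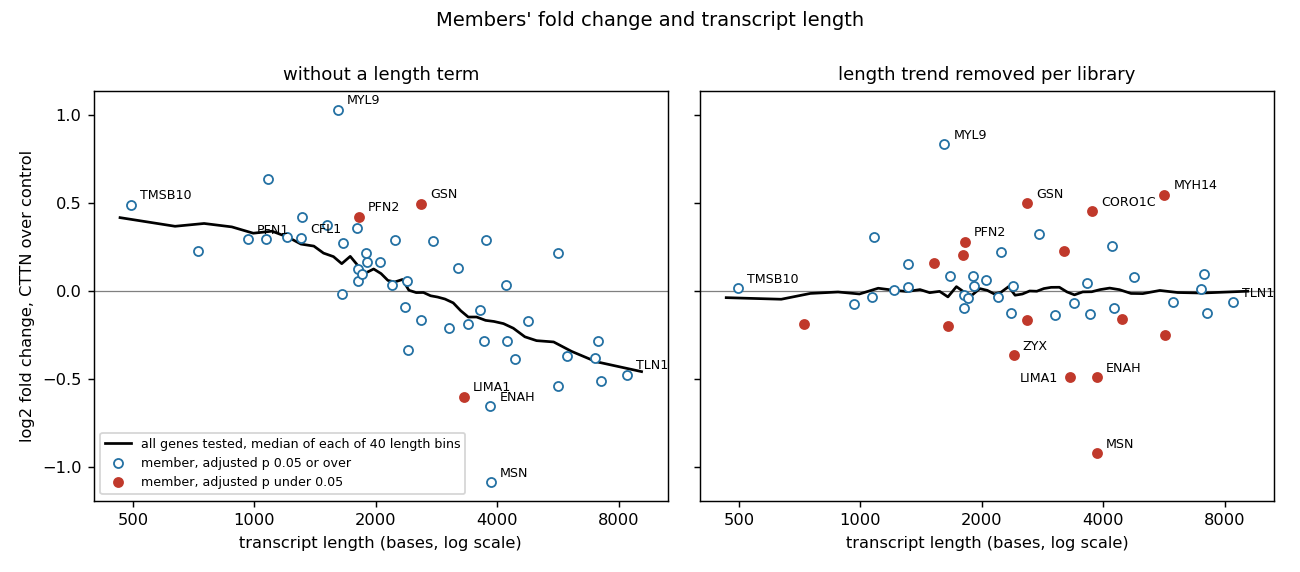
Log2 fold change (CTTN over control) of the 48 tested genes against transcript length (bases, log scale), before (left) and after (right) the length trend of each library was removed; the line gives medians of all tested genes in 40 length bins, and filled red points passed adjusted p under 0.05. On the left most genes follow the falling line, with LIMA1, GSN and PFN2 called and ENAH and MSN below it; on the right 16 genes are called.

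Genes of the same pathway outside the 49 were described from lists chosen by function. Of 81 other actin regulators 69 were tested, 3 rose and 1 fell (5.80%, beside 4.46% of all genes), with a median log2 fold change of -0.09. CORO1A, a coronin typical of leukocytes, had the smallest adjusted p, at 119, 101 and 134 CPM against 58.3, 57.6 and 62.1 CPM (log2 fold change 0.99 ± 0.12; edgeR adjusted p = 0.00843). SCIN (scinderin), a severing protein of the gelsolin family, rose from 4.64, 4.29 and 4.64 CPM to 8.36, 9.74 and 7.01 CPM (log2 fold change 0.89 ± 0.14; edgeR adjusted p = 0.0233); its row also carries the name AC011891.1, with 99.5 to 100% of the fragments from SCIN. The other calls, close to the threshold, were CNN3 (calponin 3) at 0.40 ± 0.083 and CAP2 at -0.56 ± 0.12 (edgeR adjusted p = 0.0482 and 0.0497).

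Of 56 other focal adhesion genes 49 were tested, with 3 higher, 2 lower (10.2%, beside 4.46% of all genes) and a median of 0.06. FHL3, a LIM-domain protein, had 4.35, 3.86 and 5.07 CPM against 1.98, 2.12 and 2.34 CPM (log2 fold change 1.04 ± 0.15, edgeR adjusted p = 0.0176). SORBS3 (vinexin), which binds vinculin, had 17.8, 18.1 and 21.2 CPM against 11.7, 10.8 and 11.6 CPM (log2 fold change 0.74 ± 0.10, edgeR adjusted p = 0.0151). CAV1 (caveolin 1) had a log2 fold change of 0.58 ± 0.12 (edgeR adjusted p = 0.0477). NEDD9, an adhesion scaffold, fell by 0.82 on the log2 scale (SE 0.12, edgeR adjusted p = 0.0182), from 49.6, 49.02 and 50.5 CPM to 28.0, 32.6 and 23.6 CPM. LASP1, an actin and zyxin binder, fell by 0.52 (SE 0.10, edgeR adjusted p = 0.0441). SRF, its coactivators and its known targets were found in 27 rows, of which 20 were tested; 1 of them (5% beside 4.46%), CAV1, rose, and the median was 0.24. Without any 1 of the control libraries or CTTN library 1 these lists had 0 calls, where 0.102 to 0.218% of all genes were called. Without CTTN library 2 they had 36, 27 and 10 calls (47.1% of all genes), and without library 3 they had 9, 7 and 6 (8.55% of all genes).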

How the data were processed

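Poly(A) RNA of 3 CTTN and 3 control SKBR3 libraries was sequenced as paired ends with a stranded TruSeq kit. The submitters' processing notes name bcl2fastq 2.20.0, Trimmomatic, STAR, Cufflinks and GRCh38, while the study's methods name another trimmer and hg19; the loci in the files are those of GRCh38. The authors deposited, per gene, start-site group and isoform, counts that Cufflinks estimated and divided by a size factor per library (a signal, not raw counts), and FPKM. Multiplying the deposited values by the size factors, a ratio the authors deposited per library, gave whole fragments for 100% of gene values. The tolerance was 0.02 fragments, or a small fraction of the value where that was larger. For the genes with the most fragments this check therefore could not tell whole numbers from others. The tests used these values, rounded, while the planned test had assumed counts. Tables of start-site groups and isoforms hold split estimates, rounded to whole numbers. The labels name 2 of the 3 control columns, and all 3 control columns carry a control name in the deposited sample table, so the group of each is known but not which control sample it is.

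Genes were tested with edgeR 4.0.16 (R 4.3.3; filterByExpr, TMM, glmQLFit and glmQLFTest, two-sided, Benjamini-Hochberg over all 14409 genes, threshold 0.05), without covariates, as the study used edgeR. Fold changes use edgeR's default prior. Alternatives were DESeq2 1.42.0, DESeq2 size factors, library totals, limma 3.58.1 on log2(FPKM + 1) and log2(FPKM + 0.1), no filter, a replicate block, leaving out each library and, added later, removal of a length trend. The code was tested on simulated data with the same dispersion in every library and no length trend, so error rates in these data were not tested. Positions and promoter windows are from RefSeq (GRCh38.p14); coding lengths and transcript names come from GENCODE by transcript identifier. Library values were given for those of the 49 genes called at 0.05, the highest of each role in FPKM, and the start sites of TPM1 and TPM4. They were also given for calls of at least 1.5-fold of the other lists, while smaller calls there have the log2 fold change, SE and adjusted p. Other genes were named after their values were seen. The 49 genes and all lists were chosen with earlier results of these data known. Precision is limited by 3 libraries a group and 34887069 to 41279816 fragments.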

Additional observations from a re-analysis of the deposited data

How the results depend on the processing

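In the main fit 69 other actin regulators, 49 other focal adhesion genes and 20 SRF targets were tested, and counts for the other lists follow this order. With DESeq2's Wald test the calls over all genes were 1076 higher and 998 lower (14.4%). Of the 48 genes 4 were higher and 5 lower, and the other lists had 12, 11 and 8 calls. With library totals alone 295 genes were higher and 251 lower (3.79% of all genes). Of the 48 genes 1 was higher (GSN) and 2 lower (LIMA1, ZYX), and the other actin regulators had 2 calls. With limma on log2(FPKM + 1) all genes gave 106 higher and 79 lower (1.28%). The list had 0 higher (LIMA1 stayed lower), with 1, 1 and 0 calls in the other lists. With log2(FPKM + 0.1) the values were 107, 73 (1.25% of all genes) and 0, and 1, 2 and 0. Without a filter 25834 genes were tested, of which 539 were higher and 437 lower (3.78%). Of the list 2 were higher (GSN, PFN2) and 3 lower (LIMA1, ENAH, MSN), and SRF targets had 3 calls. With the replicate block, 51 genes were higher and 54 lower (0.729% of all genes), and 0 and 0 of the list. At an unadjusted p under 0.05 the list had 16 genes, beside 27.1% of all genes. The other lists had 1, 0 and 0 calls, and CTTN had a log2 fold change of 1.30 (edgeR adjusted p = 0.0588). Same-numbered libraries had correlations of deviations of 0.02, 0.09 and -0.20, and differently numbered ones from -0.28 to 0.26. These values cannot show whether libraries were paired, since it is not known which control sample each control column is. With the 2 control columns that the labels name, which is the fit without control library 1, calls were 16 higher and 13 lower (0.198% of all genes). There were 0 and 0 calls of the list (11 unadjusted, beside 18.8% of all genes) and 0, 0 and 0 of the other lists. CTTN was at 1.33 (edgeR adjusted p = 0.136). With the length trend removed, calls were 1428 and 1302 over all genes (18.9%), 7 and 9 of the list, and 23, 17 and 7 of the other lists. Leaving out each library gave 10 to 3366 genes higher and 5 to 3559 lower (0.102 to 47.1% of all genes). These fits had 0 to 17 and 0 to 15 calls of the list, and 0 to 36, 0 to 27 and 0 to 10 of the other lists. They gave a CTTN log2 fold change of 1.10 to 1.57, and 0 start-site groups and 0 isoforms each time. The summed FPKM was 10703 to 13160 in CTTN cells and 10188 to 10325 in controls.

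Of 672 log2 fold changes of the 48 genes under alternatives, 573 kept their direction and side of the threshold, 20 no longer passed, 53 newly passed and 26 turned direction, in 15 genes whose fold change was at most 0.38 in size. With library totals these were CFL2 (-0.0091) and SRF (-0.0080); with log2(FPKM + 1), CFL2 (-0.13), LIMK2 (-0.010), CAPZA2 (-0.18) and FLNA (0.32); with log2(FPKM + 0.1), CFL2 (-0.14), LIMK2 (-0.011), CAPZA2 (-0.18) and FLNA (0.32). With the length trend removed they were ACTB (-0.094), ACTG1 (-0.023), CFL2 (-0.032), PFN1 (-0.072), DIAPH2 (0.016), DIAPH3 (0.083), CAPZA2 (-0.040), PXN (0.046), MYH10 (0.096), MYL6 (-0.18) and MYL12A (-0.032). Leaving out 1 library turned ACTB (-0.053 to 0.15), LIMK2 (-0.021 to 0.14), TPM1 (-0.073 to 0.040), MYL6 (-0.044 to 0.42) and SRF (-0.0011 to 0.060). The cause of these shifts was not tested.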
